A study of Mus musculus with 10 samples.

Results

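A set of 3126 open-chromatin regions of mouse haematopoietic stem and progenitor cells (HSPCs) was called in both wild-type libraries and in none of the libraries of 3 leukaemia-associated genotypes. Merging the peaks of 8 ATAC-seq libraries that had 1 bp or more in common, on chromosomes 1 to 19 and X, yielded 103446 regions. A missing region is one with a peak in both WT lists and in none of the 6 mutant lists. The rule took 3.02% of all merged regions and 5.4% of the 57937 regions with a peak in both WT lists. The other 54811 regions of both WT lists had a peak in at least 1 mutant list and are called kept regions. The missing regions were thus chosen by the presence and absence of peaks in these same libraries, so their absence from mutant lists is a description and was not tested.

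The cells were lineage-negative bone marrow cells of C57BL/6 mice, with 100000 cells used per library and 2 libraries per genotype. Npm1c libraries came from Npm1flox-cA/+;Mx1-Cre+ mice, which carry a leukaemia mutation of nucleophosmin, a protein of the nucleolus, switched on by a Cre under the interferon-inducible Mx1 promoter. Flt3-ITD libraries came from Flt3ITD/+ mice, in which an internal tandem duplication makes the cytokine receptor FLT3 signal without its ligand. DM libraries came from Npm1flox-cA/+;Flt3ITD/+;Mx1-Cre+ mice, which carry both mutations. The reference was wild type (WT), and no Cre is named for the WT and Flt3-ITD mice, so what the Npm1c and DM libraries show belongs to allele and Cre together. Replicates are biological per the labels, which give no animals or ages, so a p-value over libraries measures the spread between these samples, which may be technical. Lineage depletion leaves a mixture of stem cells and committed progenitors. A region absent from a list can therefore reflect fewer cells that open it or less opening per cell, which cannot be told apart.

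ATAC-seq reads where a transposase can reach the DNA, mostly promoters and enhancers. Promoters of genes that all cells use are open in nearly every cell type and give wide, strong peaks. Enhancers are opened by cell-type-specific factors such as RUNX1, GATA2 and PU.1, often lie inside introns or far from genes, and give narrower peaks. In acute myeloid leukaemia, nucleophosmin mutations are known for keeping the HOX programme on, FLT3 duplications for driving STAT5 and MAP kinase signalling, and many further mutations fall in genes for chromatin regulators.

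The sequence under missing regions could be read at promoters, of which 62, belonging to 57 genes, had at least 150 of 300 bases in a missing region. Each promoter runs from 250 bases before to 50 bases after the start, taken from the RefSeq promoter table of GRCm38.p6. The 6 shown belong to the genes with the widest WT peaks relative to the other peaks of the WT lists, and for Agbl2 the start that was wholly covered is shown. They belong to Srsf12, which encodes an SR-type splicing protein (chr4:33209022-33209321, plus strand), Padi3, a peptidylarginine deiminase of hair and skin (chr4:140810599-140810898, minus strand), Agbl2, a carboxypeptidase that trims tubulin (chr2:90782988-90783287, plus strand), Tmem28 (chrX:99819914-99820213, plus strand), Zfp185, an actin-binding LIM domain protein (chrX:72987089-72987388, plus strand), and Ddah1, an enzyme that degrades an inhibitor of nitric oxide synthases (chr3:145758442-145758741, plus strand). The sequences run 5′ to 3′ along the strand of the gene, and capitals mark matches to the 14 motifs searched.
Srsf12: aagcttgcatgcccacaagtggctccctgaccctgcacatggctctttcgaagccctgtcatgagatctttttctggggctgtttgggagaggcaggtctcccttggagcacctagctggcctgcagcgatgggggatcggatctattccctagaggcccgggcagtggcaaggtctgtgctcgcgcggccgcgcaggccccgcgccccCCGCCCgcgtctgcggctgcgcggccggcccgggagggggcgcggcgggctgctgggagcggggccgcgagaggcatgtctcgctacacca
Padi3: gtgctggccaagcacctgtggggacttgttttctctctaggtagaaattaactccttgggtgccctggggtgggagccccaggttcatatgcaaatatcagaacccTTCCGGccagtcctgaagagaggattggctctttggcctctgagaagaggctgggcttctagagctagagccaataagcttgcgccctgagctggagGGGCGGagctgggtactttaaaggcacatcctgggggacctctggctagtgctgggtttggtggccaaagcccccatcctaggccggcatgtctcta
Agbl2: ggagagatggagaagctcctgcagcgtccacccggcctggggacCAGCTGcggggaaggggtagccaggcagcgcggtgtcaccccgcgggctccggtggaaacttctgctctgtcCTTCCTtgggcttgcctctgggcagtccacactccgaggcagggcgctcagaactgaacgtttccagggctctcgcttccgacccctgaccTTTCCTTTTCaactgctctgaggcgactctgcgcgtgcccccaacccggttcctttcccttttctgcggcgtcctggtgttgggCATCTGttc
Tmem28: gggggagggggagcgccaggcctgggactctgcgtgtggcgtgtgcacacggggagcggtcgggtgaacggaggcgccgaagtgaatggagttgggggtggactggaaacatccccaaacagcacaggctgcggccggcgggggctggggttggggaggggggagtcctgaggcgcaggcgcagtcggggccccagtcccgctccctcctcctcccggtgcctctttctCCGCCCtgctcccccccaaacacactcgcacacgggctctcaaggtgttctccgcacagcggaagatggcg
Zfp185: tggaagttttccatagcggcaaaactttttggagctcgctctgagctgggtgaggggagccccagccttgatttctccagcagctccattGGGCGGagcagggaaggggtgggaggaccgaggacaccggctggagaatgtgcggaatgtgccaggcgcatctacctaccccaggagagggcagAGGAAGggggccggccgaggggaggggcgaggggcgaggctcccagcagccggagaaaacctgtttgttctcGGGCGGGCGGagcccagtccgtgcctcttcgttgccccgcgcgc
Ddah1: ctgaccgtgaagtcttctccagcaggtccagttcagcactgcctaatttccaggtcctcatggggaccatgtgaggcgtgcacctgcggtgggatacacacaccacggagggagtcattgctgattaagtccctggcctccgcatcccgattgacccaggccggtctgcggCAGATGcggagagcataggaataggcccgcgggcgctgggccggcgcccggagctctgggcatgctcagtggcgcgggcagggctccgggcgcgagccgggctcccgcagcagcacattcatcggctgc

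GGGCGG, the box bound by SP and KLF factors, stands in 4 of the 6 sequences. Motifs were searched on both strands. They were AGATAA for GATA factors, TGTGGT for RUNX factors, CCGGAA and also AGGAAG for ETS factors, TGANTCA for AP-1, TTGCNNAA for C/EBP factors, GGGCGG and also GGGTGT for SP and KLF factors, CAGCTG and also CATCTG for E-box factors, TTCNNNGAA for STAT factors, TGATTGA for HOX with PBX, CCACCAGG for the CTCF core, and an IRF element. Matches of different motifs may overlap. GGGCGG stood in 64.5% of the 62 promoters in missing regions, against 68.3% of 11578 promoters in kept regions, 52.2% of the 736 in kept regions with WT peaks under 500 bp, and 46.6% of all 21019 promoters. CCGGAA, the core that ETS factors of housekeeping promoters read, stood in 4.84% of promoters in missing regions, against 29.1% of those in kept regions, 11.1% of the 736 with narrow WT peaks and 18.9% of all. AGGAAG stood in 19.4% of promoters in missing regions, against 31.9% in kept regions, 39.4% of the 736 with narrow WT peaks and 34.1% of all. AGATAA stood in 4.84% of promoters in missing regions, against 5.84% in kept regions, 8.29% of the 736 with narrow WT peaks and 9.69% of all. Promoters of neighbouring starts of the same gene can overlap, so a match can be counted more than once, as the AGATAA match at Adtrp was. A match is no binding site, and with 62 promoters these shares are a description of a small set.

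The 57 genes are of many kinds. Among them are Npy and Drd2 of neurons, the developmental transcription factors Six6 and Foxi3, the melatonin receptor gene Mtnr1a and Trp73 of the p53 family, and also the lipid carrier gene Apoe, the flagellin receptor gene Tlr5 and Mpi, a gene of mannose metabolism. These examples were chosen after the names of all 57 genes were seen, and kinds were not counted. The WT peaks at the 62 promoters were narrow, with a median of 329.5 bp, against 1360.5 bp at promoters in kept regions. The median GC content was 62.5% in missing regions, 62.0% in kept regions, 58.0% in the 736 with narrow WT peaks and 56.7% over all promoters. The CpG ratio, observed over expected, had a median of 0.621 in missing regions, 0.785 in kept regions, 0.538 in the 736 with narrow WT peaks and 0.573 over all promoters.

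The losses that make up this set were of unequal size. Regions called in both WT lists and in neither list of a mutant numbered 6480 for Npm1c (6.26% of all merged regions), 16751 for Flt3-ITD (16.2%) and 21591 for DM (20.9%). The 3126 missing regions are by construction within all 3 sets, and make up 48.2% of the Npm1c losses, 18.7% of the Flt3-ITD losses and 14.5% of the DM losses. These comparisons share the same WT libraries. Just outside the rule stood 2909 regions of both WT lists with a peak in a single mutant list. For 547 and 1363 of them that list was Npm1c replicate 1 and replicate 2, for 52 and 671 it was Flt3-ITD replicate 1 and replicate 2, and for 60 and 216 it was DM replicate 1 and replicate 2. A further 6366 regions had a peak in 1 WT list and in no mutant list, of which 5298 were called in WT replicate 1 and 1068 in WT replicate 2. At the other end, 26169 regions of both WT lists (45.2%) were called in all 6 mutant lists.

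The WT lists set the scale of these counts. Npm1c lists held 62732 and 68620 peaks, Flt3-ITD lists 43794 and 51702, DM lists 55597 and 63110, and WT lists 80878 and 63879. The mutant libraries averaged 57592.5 ± 9028 peaks and the WT libraries 72378.5 ± 12020 (SD, n = 6 and n = 2). The two-sided exact permutation test over 28 relabellings gave p = 0.143, and the smallest p it can give is 0.0714. Peaks covered 33.4 ± 6.97 Mb in mutants and 44.99 ± 7.37 Mb in WT (SD, n = 6 and n = 2, exact permutation p = 0.143). No read depth comes with the lists, and its part in the missing calls was not tested. When each list was cut to its 43794 widest peaks, the length of the shortest list, 843 regions were missing, 2.36% of regions in both WT lists. Of these 843, 209 overlapped one of the 3126. That setting left no peak narrower than 400 bp in WT replicate 1 and 336 bp in WT replicate 2, while Flt3-ITD replicate 1 was left whole. With peaks under 300 bp removed from each list 2774 regions were missing, of which 766 overlapped one of the 3126. Dropping WT replicate 2 raised the number to 8502.

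Missing regions were narrow in WT. A position list holds no peak height, so width was the only sign of strength. The median width of the WT peak was 301 bp in WT replicate 1 and 272 bp in WT replicate 2 at missing regions, against 534 and 451 bp at kept regions. Averaged over both libraries, WT peaks of missing regions were between 200 and 810 bp wide, with a median of 287.5 bp, against 493.5 bp for kept regions. Regions with a peak in a single mutant list had a median of 318 bp, and those called in all 6 mutant lists 799.5 bp. The peaks of both WT libraries shared 75.7% of their bases at missing regions (median), against 84.3% at kept regions, and their midpoints lay 27.5 bp apart at missing regions and 26.5 bp apart at kept regions.

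The share of WT regions that was missing fell with each step of WT peak width. It was 35.7% of the 2067 regions with WT peaks of 200 to 249 bp (737 regions, exact binomial 95% interval 33.6 to 37.8). It was 21.5% at 250 to 299 bp, 10.3% at 300 to 349 bp and 4.41% at 350 to 399 bp. From 400 bp to below 500 bp it was 1.91%, and from 500 bp to below 600 bp 0.915%. A single one of 4028 regions from 800 bp to below 1000 bp was missing, and 0 of 11371 regions of 1000 bp or more, an upper limit of 0.0324%. These intervals cover counting error alone. Because width and position are linked, the positions below are also given for kept regions weighted to the same WT peak widths in 50 bp steps.

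**Figure D1:**
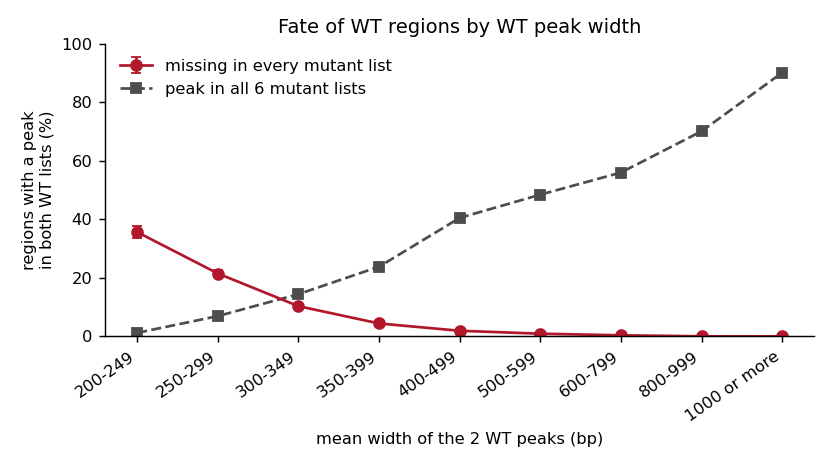
Share of WT regions (%, y axis) missing in every mutant list (red circles, with exact binomial 95% intervals) or called in all 6 mutant lists (grey squares), by mean width of the WT peaks (bp, x axis). Missing regions made up 35.7% of the narrowest class and 0 of the 11371 regions of 1000 bp or more, while the share called in all 6 mutant lists reached 90.2%.

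Missing regions lay inside genes about as often as kept regions, and nearer to gene ends than kept regions of the same widths. Positions refer to the midpoint of a region. Of the 3126, 1955 (62.5%) lay inside a gene, against 62.4% of kept regions and 56.4% of kept regions of the same widths. Within 1 kb of a gene end lay 306 missing regions (9.79%, Wilson 95% interval 8.80 to 10.9), against 21.8% of kept regions. At the same widths the order turned round, with 6.51% of kept regions within 1 kb of a gene end. Likewise 4.43% of the 3023 missing regions on chromosomes in the promoter table lay within 1 kb of a transcription start, against 18.5% of kept regions and 3.56% of kept regions of the same widths. Few were remote from genes: 79 (2.53%) lay over 100 kb from any gene, against 3.54% of kept regions and 5.68% of those of the same widths. The median distance to a gene end was 10880.5 bp for missing and 8338 bp for kept regions.

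**Figure D2:**
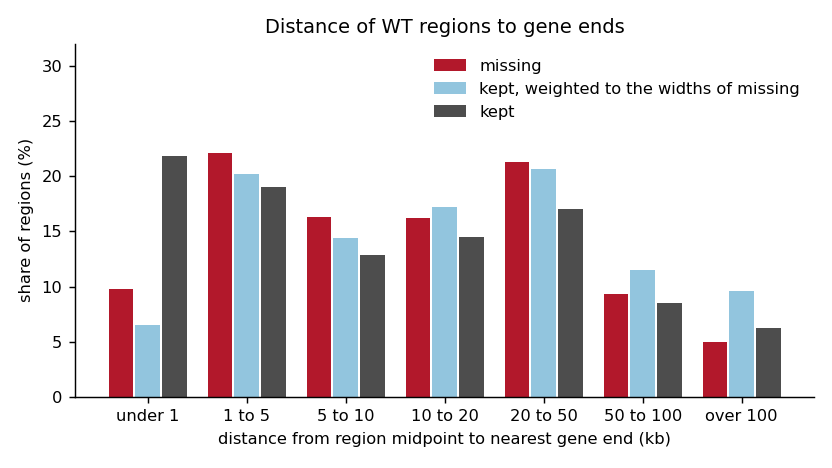
Share of regions (%, y axis) by distance from the region midpoint to the nearest gene end (kb, x axis), for missing regions (red), kept regions weighted to the WT peak widths of missing regions (blue) and all kept regions (grey). Within 1 kb of a gene end, missing regions (9.79%) stood below kept regions (21.8%) and above kept regions of the same widths (6.51%).

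Missing regions were more frequent among genes than their widths alone gave. Of WT regions with no gene within 100 kb, 3.91% were missing, against 7.79% had each region the missing share of its width class. With 1 to 2 genes nearby the measured share was 4.62% (6.12% from width alone), with 3 to 5 genes 5.53% (5.26%), and with 6 to 9 genes 6.72% (4.56%). At 10 to 14 genes it was 6.01% (3.93%) and at 15 or more 5.30% (3.17%). Width alone would thus have put missing regions in gene-poor stretches, and they were measured more often in gene-rich ones. The size of the difference depended on the lists. As reported, 4.55% of WT regions with at most 2 genes nearby were missing and 6.44% of those with 6 or more, but in lists of equal length the shares were 2.35% with at most 2 genes and 2.34% with 6 or more. Of the 3126 reported missing regions, 209 overlapped one missing there, so this setting cannot show whether the difference holds for the rest. Without Npm1c replicate 2 the shares lay close together too, at 7.37% with at most 2 genes and 7.77% with 6 or more.

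**Figure D3:**
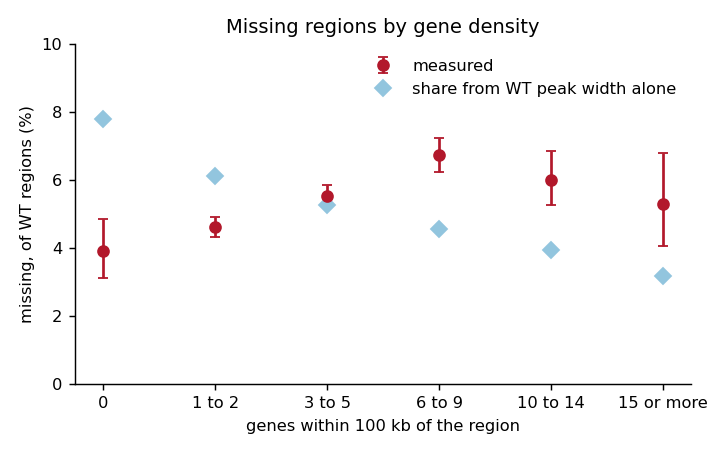
Share of WT regions that was missing (%, y axis) by the number of genes within 100 kb (x axis). Red points are measured shares with exact binomial 95% intervals and blue diamonds the shares that WT peak width alone would give, which fall from 7.79% to 3.17% while the measured share is highest, 6.72%, at 6 to 9 genes.

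The share also differed between chromosomes. Chromosome 11, one of the gene-richest of the mouse, had the highest share, with 290 of 4114 WT regions missing (7.05%), where width alone gave 214. Chromosome 19 followed with 6.38%, chromosome 12 had 6.21%, chromosome 4 6.03%, chromosome 18 5.85%, chromosome 15 5.84% and chromosome 7 5.83%. The gene-rich chromosome 17 had 5.26%. Chromosome 3 had the lowest share, with 105 of 3008 regions (3.49%), where width alone gave 167, and chromosome X had 47 of 1222 (3.85%).

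Missing regions had a missing neighbour more often than kept regions did. The nearest other region of both WT lists was itself missing for 344 of the 3126 (11.0%), against 4.94% of kept regions, and the median distance to that neighbour was 5103.5 bp for missing and 4748 bp for kept regions. A mutant peak lay within 500 bp of 364 missing regions (11.6%), a share with no kept counterpart, since a mutant peak that touches a region takes it out of the set. Per library, that share ran from 5.34% in Flt3-ITD replicate 1 to 7.36% in Flt3-ITD replicate 2. The median distance to the nearest peak of any mutant list was 3541.5 bp.

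Within 20 kb, no more than 4 missing regions lay together, and 6 separate windows held that many. The first, 4 regions of 4 in both WT lists, lay at Padi3 and Padi1 (chr4:140809197-140813114), neighbouring genes for peptidylarginine deiminases of skin. By the rule the Npm1c, Flt3-ITD and DM libraries had 0 of these regions each, against 4 in each WT library. The second, at Nipsnap1 (chr11:4865858-4885811), held 4 missing regions of 5 and kept a single region in each mutant library. The third, at Mroh6 and Eef1d, which encodes a subunit of a translation elongation factor (chr15:75889575-75907033), held 4 of 7.

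The widest missing region, relative to the WT lists, lay at chr13:52223205-52224050 with no gene within 100 kb, and measured 805 and 815 bp in the WT libraries. Its nearest mutant peak was 12039 bp away. The next was inside Mprip, which binds myosin phosphatase (chr11:59774405-59775267, WT peaks of 863 and 733 bp). The third covered the start of B4galnt3, which encodes a glycosyltransferase (chr6:120294182-120294986, WT peaks of 805 and 700 bp), and the nearest mutant peak lay 61639 bp away. At B4galnt3, 3 of 4 regions of both WT lists were missing. The other wide ones belonged to the methyltransferase gene Mettl23, Gm42517, the G-protein subunit gene Gna12, Agap1, Srsf12, Mcu, which encodes the pore of the mitochondrial calcium uniporter, and Fli1, an ETS factor of stem cells and megakaryocytes. The missing region at Fli1 lay 45 bp from an end of the gene in the gene table and 440 bp from a mutant peak (WT peaks of 814 and 520 bp). Among those within 1 kb of a transcription start, B4galnt3, Srsf12, Mast1, Padi3 and Agbl2 had the widest WT peaks. The region at Mast1, a microtubule-associated kinase, measured 542 and 610 bp and had a mutant peak 428 bp away.

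Most genes with a missing region had a single one. The 3047 missing regions within 100 kb of a gene went to 2385 genes, of which 1925 had 1, 324 had 2 and 136 had 3 or more. Arid1b, which belongs to the BAF chromatin remodellers, had most, with 10 missing of 46 regions in both WT lists. The called regions at Arid1b numbered 27 and 32 in the Npm1c libraries, 26 and 30 in the Flt3-ITD libraries, 30 and 34 in the DM libraries, and 59 and 47 in the WT libraries. By the rule each missing region counts in both WT libraries and in no mutant library, so the gap between WT and mutant counts at genes chosen for missing regions is a description. Without the missing regions the WT libraries had 49 and 37 called regions at Arid1b. In lists of equal length 1 of its 23 regions was missing. Of its 10 missing regions, 8 lay inside the gene, more than 40 kb from either of its ends, and the widest (chr17:5107540-5108111) measured 572 and 329 bp in WT.

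Gse1, which encodes a protein of histone deacetylase complexes, had 7 missing of 62 regions. It had 40 and 41 called regions in the Npm1c libraries, 51 and 65 in the Flt3-ITD libraries, 50 and 55 in the DM libraries, and 85 and 64 in the WT libraries. Flt3-ITD replicate 2 thus exceeded WT replicate 2, and without WT replicate 2 the missing regions at Gse1 numbered 19 of 88. Cux1, a homeodomain factor whose gene is often deleted in myeloid disease, had 6 of 26 missing, with 15 and 15 called regions in the Npm1c libraries, 22 and 27 in the Flt3-ITD libraries, 22 and 23 in the DM libraries, and 43 and 26 in the WT libraries. Here Flt3-ITD replicate 2 exceeded WT replicate 2. Jarid2, a cofactor of Polycomb repressive complex 2, had 5 of 12 missing, with 7 and 6 called regions in the Npm1c libraries, 5 and 7 in the Flt3-ITD libraries, 6 and 9 in the DM libraries, and 19 and 12 in the WT libraries. Without the missing regions WT replicate 2 had 7 there, fewer than DM replicate 2. Of the 5 missing regions at Jarid2, those 95434, 66811 and 57070 bp from its nearer end lay outside the gene. In lists of equal length the missing regions at Gse1 numbered 5 of 47, at Cux1 3 of 17 and at Jarid2 0 of 4.

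Of the other genes with most missing regions, the kinase gene Map4k4 had 6 of 17, Nol4l 6 of 27, Sipa1l3, a GTPase-activating protein relative, 6 of 18, Specc1 6 of 16, the actin-binding protein gene Svil 6 of 26 and the adaptor gene Anks1 5 of 10. In lists of equal length 1 of 6 regions was missing at Sipa1l3, 1 of 5 at Specc1 and none at Map4k4, Nol4l, Svil and Anks1. At Anks1, called regions numbered 3 and 3 in the Npm1c libraries, 7 and 7 in the Flt3-ITD libraries, 9 and 11 in the DM libraries, and 15 and 10 in the WT libraries, so DM replicate 2 exceeded WT replicate 2. At Specc1 the DM libraries, with 16 and 20, overlapped the WT libraries, with 26 and 17.

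By share, among genes with at least 5 regions in both WT lists, Nipsnap1 and Arfgef2 came first with 4 of 5 missing each. Nipsnap1, a mitochondrial protein gene, had a single called region in each of the 6 mutant libraries, against 5 and 5 in WT. Without the missing regions, which the rule puts in WT alone, the WT libraries had 1 and 1 there. Arfgef2, which activates ARF proteins in vesicle traffic, had 2 and 2 in the Npm1c libraries, 3 and 3 in the Flt3-ITD libraries, 5 and 9 in the DM libraries, and 11 and 5 in the WT libraries. The phagocytosis receptor gene Adgrb1, the kinase gene Nlk and Uqcc1, an assembly factor of respiratory complex III, had 4 of 6 missing each. At 180 genes all regions of both WT lists were missing, but 13 of these genes had more than 1 such region. Abca17 was the one with 3, and it had 3 and 3 called regions in Flt3-ITD, 3 and 4 in DM and 0 in both Npm1c libraries, against 6 and 3 in WT, so its mutant peaks lay elsewhere. Pou2f3, the master factor of tuft cells, had 0 called regions in all 6 mutant libraries, against 4 and 4 in WT, although 2 of its regions were in both WT lists.

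**Figure D4:**
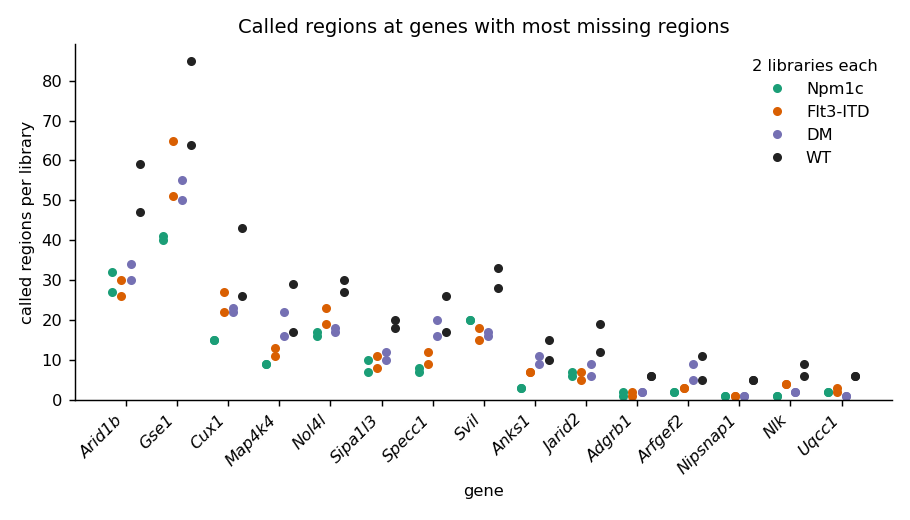
Called regions per library (y axis) at the 10 genes with most missing regions and the 5 genes with the highest share missing (x axis). Each point is a library, 2 for each of Npm1c, Flt3-ITD, DM and WT, and equal values lie on top of each other. Missing regions enter both WT counts and no mutant count by the rule. Even so, a DM library exceeds a WT library at Map4k4, Specc1, Anks1 and Arfgef2, and Flt3-ITD replicate 2 exceeds WT replicate 2 at Gse1 and Cux1. Both WT libraries exceed all mutant libraries at 9 of the 15 genes, and at 2 of them without the missing regions.

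Most promoters of genes with missing regions that were called in WT were also called in the mutants. A start was counted as called where a peak shared at least 1 base with the promoter of the table. Of the 93 genes with 3 or more missing regions whose start was called in both WT libraries, the Npm1c libraries called 92.5% and 91.4%, the Flt3-ITD libraries 95.7% and 95.7%, and the DM libraries 94.6% and 92.5%. For the 1385 such genes with 1 or 2 missing regions the shares were lower, 89.1% and 90.6% in the Npm1c libraries, 91.0% and 93.6% in the Flt3-ITD libraries, and 91.6% and 91.9% in the DM libraries. For the 7979 genes without a missing region the Npm1c libraries called 95.01% and 96.4%, the Flt3-ITD libraries 93.9% and 96.2%, and the DM libraries 94.96% and 95.3%. The 1421 kept regions at genes with 3 or more missing regions were called in 80.6% and 85.7% of cases in the Npm1c libraries, 63.5% and 80.7% in the Flt3-ITD libraries, and 54.4% and 57.8% in the DM libraries. Kept regions at genes without a missing region reached 89.2% and 92.4% in the Npm1c libraries, 62.2% and 73.3% in the Flt3-ITD libraries, and 62.9% and 64.6% in the DM libraries. The shares were lower at genes with several missing regions in both Npm1c and both DM libraries and higher in both Flt3-ITD libraries, and since the calls chose these genes the difference was not tested.

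The gene lists were read against the 5.45% of all 55918 WT regions assigned to a gene that were missing. Of 21 starts of the stem and progenitor list, 14 to 17 were called in mutant libraries and 17 to 18 in WT. The starts of Kit, Cd34 and Gata2 were called in all 8 libraries and that of the T-cell gene Cd3e in none. The start of Hbb-bs, an adult beta-globin gene, was called in neither DM library, but in both Npm1c, both Flt3-ITD and both WT libraries. That of S100a8, a calprotectin subunit gene of neutrophils, was called in 6 libraries and not in Flt3-ITD replicate 1 or DM replicate 2. Of 22 starts of the erythroid list, 8 to 20 were called in mutant libraries and 19 in each WT library. All 20 starts of the housekeeping list were called in each library. Other lists varied. Of 10 starts of the HOX list, 5 to 7 were called in mutant libraries and 4 to 6 in WT. The monocyte list had 8 to 15 of 18 in mutants and 7 to 12 in WT. The megakaryocyte list had 9 to 16 of 18 in mutants and 13 to 14 in WT. The neutrophil list had 10 to 12 of 20 in mutants and 7 to 15 in WT, and the interferon list 12 to 16 of 18 in mutants and 16 in WT.

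Chromatin regulator genes mutated in blood cancer had the highest share, 32 of 262 regions (12.2%, exact binomial interval 8.51 to 16.8), where width alone gave 16.9 regions. That interval treats regions as independent, and the lists were written with earlier results of these data known, so no test was made. The 32 fell on 15 of the 34 genes, led by Arid1b and Jarid2, then Dnmt3a, the de novo DNA methyltransferase, with 3 of 10 and Arid1a, another BAF subunit, with 2 of 8. Without Arid1b the list had 22 of 216 (10.2%). The high share was not seen in lists of equal length, where it was 2 of 158 (1.27%), against 2.36% of all WT regions assigned to a gene there. That setting left no WT peak below 336 bp, so it cannot show whether the share holds for narrower regions. With peaks under 300 bp removed the list had 14 of 186 (7.53%), against 6.25%. Without Arid1b the list then had 7 of 157 (4.46%), below the 6.25%, and in lists of equal length 1 of 135 (0.741%). Without WT replicate 2 it was 62 of 366 (16.9%), against 11.0%. The starts of these genes were called in 24 to 26 of 27 cases in mutant libraries and in 26 in each WT library. At Dnmt3a, 6 and 6 regions were called in the Npm1c libraries, 7 and 8 in the Flt3-ITD libraries, 10 and 12 in the DM libraries, and 13 and 10 in the WT libraries.

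Lists tied to the known action of the mutations had small counts of missing regions. Each of their exact binomial 95% intervals held the 5.45% of all assigned WT regions. These intervals were 1.76 to 15.5 for the HOX list and 2.72 to 8.13 for the JAK-STAT list. They were 1.16 to 10.4 for the AP-1 list and 0.443 to 12.5 for the interferon list. HOX genes and their cofactors had 4 of 63 missing (6.35%), where width alone gave 2.64, and 2 of the 4 were among the 11 regions of Mn1, a leukaemia co-activator gene. Both lay outside Mn1, 62630 and 85293 bp from its nearer end, and went to it as the nearest gene. Without Flt3-ITD replicate 2 the HOX list had 8 of 63 (12.7%), against 6.65% of all assigned WT regions in those lists, and in lists of equal length it had 0 of 37. JAK-STAT and cytokine signalling genes had 14 of 284 (4.93%), where width alone gave 12.5, and 3 of these were upstream of Jak2, which had 8 and 8 called regions in the Npm1c libraries, 3 and 7 in the Flt3-ITD libraries, 6 and 5 in the DM libraries, and 11 and 10 in the WT libraries. Stat5b and the adaptor gene Grb2 had 2 missing each. AP-1 and immediate early genes had 4 of 95 (4.21%), where width alone gave 2.63, and interferon response genes 2 of 55 (3.64%), where it gave 4.03. Flt3 had 0 of 9 missing, Npm1 0 of 3, and Mx1 had no region in both WT lists. At Mx1, an interferon-induced gene, 4 and 3 regions were called in the Npm1c libraries, 1 and 1 in the Flt3-ITD libraries, 3 and 4 in the DM libraries, and 1 and 0 in the WT libraries. The Npm1c and DM mice carry Mx1-Cre, so what these counts owe to Cre and to the alleles cannot be told apart.

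The shares of blood cell type lists as reported ran from 0 to 5.49%. Stem and progenitor genes had 10 of 215 (4.65%), including 3 of 30 at Runx1 and 2 of 10 at Prdm16. Haematopoietic transcription factors had 25 of 621 (4.03%), where width alone gave 27.2, with Gse1, Runx1, Smad3 (3 of 25) and Runx3 (2 of 20) leading. Gse1, with 7 of 62, stands in this list although it encodes a protein of histone deacetylase complexes. Erythroid genes had 9 of 205 (4.39%), with 2 each at Add2 and Ank1 of the red cell membrane skeleton. Monocyte and macrophage genes had 4 of 113 (3.54%), neutrophil genes 1 of 45 (2.22%), B-lymphoid genes 2 of 71 (2.82%), and T and NK genes 5 of 91 (5.49%). Mast cell genes had 3 of 55 (5.45%), all 3 beyond the end of Cma1, the mast cell chymase gene, where 1 region was called in each Npm1c and Flt3-ITD library, 0 in both DM libraries and 4 in each WT library. Megakaryocyte and platelet genes had 2 of 120 (1.67%), where width alone gave 4.89. Dendritic cell and MHC class II genes had 0 of 84, where width alone gave 3.77. The count was 3 without WT replicate 1 and 6 without WT replicate 2. Leaving out a single library also raised the missing share of all WT regions, to 5.48% or more, so these counts cannot be set against 0 of 84 directly. Several of these shares moved with the lists. In lists of equal length, where 2.36% of assigned regions were missing, neutrophil genes had 2 of 27 (7.41%), monocyte genes 3 of 71 (4.23%) and stem and progenitor genes 5 of 135 (3.70%). Without Flt3-ITD replicate 2 erythroid genes had 17 of 206 (8.25%), against 6.65%. Without WT replicate 2, where 11.0% of all assigned regions were missing, stem and progenitor genes had 33 of 289 (11.4%), B-lymphoid genes 18 of 125 (14.4%) and megakaryocyte genes 12 of 156 (7.69%).

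Genes of other tissues were also checked, since lineage-depleted marrow can hold stromal cells. Stroma and endothelium genes had 6 of 64 missing (9.38%, exact binomial interval 3.52 to 19.3), where width alone gave 5.65, with 2 each at Nes and Kdr, the VEGF receptor gene. The list had 10 of 64 (15.6%) without Flt3-ITD replicate 2, against 6.65% of all assigned WT regions in those lists. It had 14 of 98 (14.3%) without WT replicate 2, against 11.0%, and 1 of 33 (3.03%) in lists of equal length, against 2.36%. The starts of this list were called in 3 to 4 of 14 cases in mutant libraries and in 6 in each WT library. Whether fewer stromal cells in the mutant samples had a part in the missing calls was not tested. Neuronal adhesion and synapse genes had 3 of 94 missing (3.19%), where width alone gave 7.14, and housekeeping genes 1 of 84 (1.19%).

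**Figure D5:**
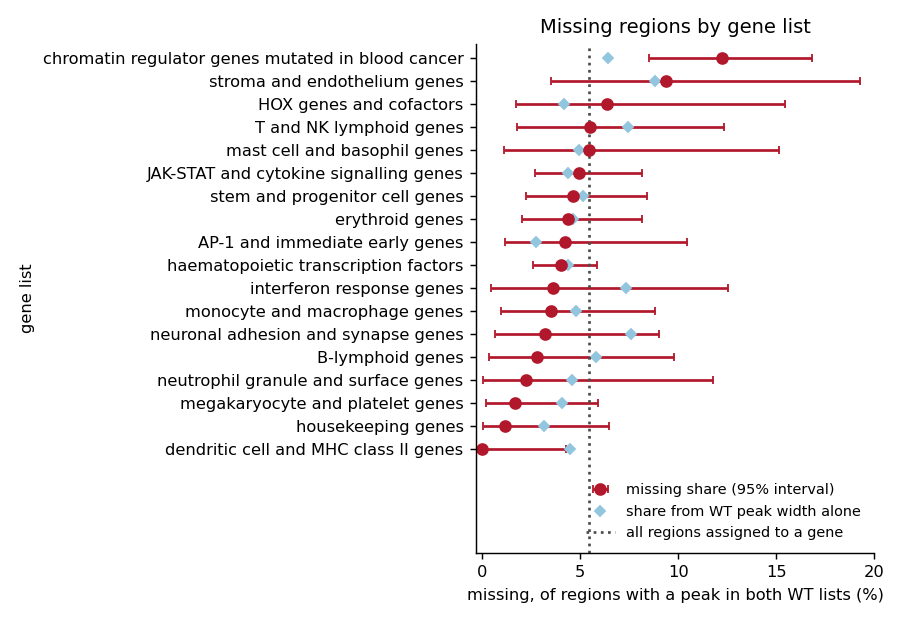
Missing regions as a share of the regions in both WT lists (%, x axis) for 18 gene lists (y axis). Red points are measured shares with exact binomial 95% intervals, blue diamonds the shares that WT peak width alone would give, and the dotted line the 5.45% of all regions assigned to a gene. The interval of chromatin regulator genes (12.2%) lies above that line, and that of dendritic cell genes (0 of 84) below it. In lists of equal length, which leave out WT peaks below 336 bp, the chromatin share was 1.27%. Intervals treat regions as independent, though 10 of the 32 missing regions of the chromatin list lie at Arid1b.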

How the data were processed

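Accessible chromatin was measured by ATAC-seq in 8 HSPC libraries, grouped by sample title. Reads were aligned with Bowtie2 and peaks called with MACS2 on mm10, per the submitters' processing notes. Versions, thresholds, read depths and any shift for the transposase offset are not given in the sources used here. Each deposited list holds 3 columns (chromosome, start, end), another kind of value than counts or scores, and 1 list belongs to 1 library. Neutrophil samples were not analysed here, and 23 to 56 peaks per list on other sequences were left out.

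Peaks sharing at least 1 bp were merged. The rule found 200 of 200 missing regions planted in the real lists and 0 of 100 overlapped by a planted mutant peak. A region went to the gene holding its midpoint (the shortest one), or else to the nearest gene end within 100 kb, using 21630 genes of the RefSeq table of GRCm38.p6. Coordinates count from 1. A gene end is either end, since that table gives no strand, and the planned start was used only where the promoter table gives one. Genes without a promoter entry and chromosome 18 were not used for starts. The planned sequences of the centres of regions were replaced by promoters. Peak widths were compared as the mean of the WT peaks, and width-weighted values, in 50 bp steps with 2000 bp or more pooled, were added after the data had been seen.

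Named were the 10 genes with most missing regions, the 5 with the highest share among those with at least 5 regions in both WT lists, the 10 widest missing regions, the 5 widest near a start, 3 windows of 20 kb, up to 4 genes per list with at least 2 missing regions, and Npm1, Flt3 and Mx1. Members of the set and all 18 lists were chosen with earlier results of these data known, 441 of 443 listed genes were found, and some genes stand in several lists. Intervals are at 95% and cover counting error. Python 3.11.15, NumPy 2.4.6, pandas 2.3.3, SciPy 1.17.1 and matplotlib 3.10.9 were used.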

Additional observations from a re-analysis of the deposited data

How the results depend on the processing

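Merging peaks within 100 bp, or asking for shared bases over at least 50% of the shorter interval, moved the number of missing regions little (3048 and 3161, against 3126), and merging within 100 bp left 9.48% with a mutant peak within 500 bp. Lists of equal length gave 843 missing regions, 2.36% of WT regions, a median width of 436 bp, 64.5% inside a gene, 10.4% within 1 kb of a gene end and 13.05% within 500 bp of a mutant peak. Without peaks under 300 bp there were 2774, 6.18% of WT regions, with a median width of 365.5 bp and 8.80% beside a mutant peak. The overlap with the reported set was 209 regions in the first case and 766 in the second, and removing narrow WT peaks does this by construction. Taking 5 kb from a gene end gave 31.9%, and 1 kb from a mutant peak 21.7%. Leaving out single libraries gave 3178 to 8502 missing regions, 5.48% to 10.9% of WT regions, median widths of 260.0 to 297 bp, 61.8% to 63.5% inside a gene, 8.85% to 10.5% near a gene end and 10.9% to 16.3% near a mutant peak, with the highest number without WT replicate 2. The difference in peak number ran from -23285.5 to -6286.5 and that in covered length from -16.8 to -6.34 Mb. In lists of equal length the number of missing regions moved by over 1.5 times for 29 of the 33 named genes and 15 of the 18 lists, and without WT replicate 2 for 10 genes and 17 lists. The total moved by more than 1.5 times in both settings too (843 and 8502, against 3126). Flt3, Npm1 and Mx1, with 0 missing regions throughout, count as unmoved. With genes taken within 50 kb in place of 100 kb, the number moved by over 1.5 times for 4 named genes and 1 list. With the replicate number as a replicate block, libraries trade places within a number only: the difference in peak number stayed at -14786.0 and that in covered length at -11.5 Mb, each with an exact p = 0.25, where the smallest p is 0.125. It was -26837.0 peaks in number 1 and -2735.0 in number 2, and no label says that the numbers pair libraries. This block was added after the data were seen. Beyond this block no paired analysis was made, since no label pairs the libraries. The counts of missing regions themselves come from a rule and were not tested. Peak heights and read depth would be needed to tell a closed region from one under the calling threshold.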
